A study of Mus musculus with 8 samples.

Results

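Calpains and calpastatin were followed in the myocardium of Piezo1 mice with and without myocardial infarction (MI). The members were the 10 genes whose symbol in the gene and transcript tables was Capn1, Capn2, Capn3, Capn5, Capn6, Capn7, Capn10, Capn15, Capns1 or Cast, out of 33249 genes, and they carried 61 of the 94947 transcripts. Messenger RNA of 8 libraries was sequenced, 2 in each of 4 groups. In fl/fl-Sham and fl/fl-MI, mice carried floxed Piezo1 alleles without Cre, and in CKO-Sham and CKO-MI they also carried a tamoxifen-inducible Cre fused to oestrogen receptor sequence (Esr1), driven by the cardiomyocyte promoter Myh6. Tamoxifen was given to young mice to delete Piezo1, a mechanosensitive Ca2+-permeable channel, in cardiomyocytes, and whether the Cre-negative littermates also received it is not given in the sources used here. To produce MI, the left anterior descending artery of young adults was tied off for good and the tissue was taken at day 42, whereas sham mice underwent the operation without tying. The study asked whether Ca2+-dependent signalling, calpain among it, differed at the transcript level when Piezo1 was deleted, so infarction and genotype are both considered.

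Calpains are intracellular cysteine proteases that cut a limited number of sites in their targets when Ca2+ rises. The classical enzymes calpain-1 and calpain-2 pair a catalytic large subunit (Capn1, Capn2) with a shared small subunit (Capns1) and are held in check by calpastatin (Cast), their dedicated protein inhibitor. In the heart they are known for cleaving cytoskeletal, sarcomeric and junctional proteins after ischaemia. Activity is set largely by Ca2+ and calpastatin at the protein level, which these RNA data do not measure.

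The genotype markers did not all follow the labels. Piezo1 stood at 72.2, 82.0, 76.7 and 88.3 CPM (counts relative to library size, scaled by the TMM factors of edgeR) in the libraries labelled fl/fl-Sham 1, fl/fl-Sham 2, CKO-Sham 1 and CKO-Sham 2, and at 53.5, 64.8, 56.3 and 64.6 CPM in fl/fl-MI 1, fl/fl-MI 2, CKO-MI 1 and CKO-MI 2, so it was not lower under the CKO label. This is a weak check, since the deletion is confined to cardiomyocytes, while the whole-gene value in bulk myocardium also counts other cells and exons outside the deleted part. Esr1 reached 331, 707 and 402 CPM in fl/fl-MI 2, CKO-MI 1 and CKO-MI 2, against 5.52 to 8.36 CPM in the other 5 libraries, so it went against the label in CKO-Sham 1, CKO-Sham 2 and fl/fl-MI 2. The library labelled fl/fl-MI 2 also stood apart in atrial genes, with Bmp10 at 3834 CPM against 10.3 to 18.8 CPM elsewhere and Myl4 at 2810 CPM against 10.2 to 48.0 CPM. The main results that rest on this library are therefore given with and without it. Library totals were 73821747 to 88117573 counts (each read pair appears to stand for 4 counts), and mitochondrially encoded genes took 43.1% to 46.4% of counts in sham but 19.9% to 24.2% in MI. Cell type markers also moved. The 7 fibroblast markers were all called higher after MI (summed 1406 to 1551 CPM in sham, 2218 to 6406 in MI). The 5 endothelial markers were all lower (1343 to 1437 against 429 to 672 CPM), and 4 of 6 macrophage markers higher. Summed macrophage markers were 360.0 to 404 CPM in sham, 744 to 967 CPM in fl/fl-MI and 381 to 596 CPM in CKO-MI. Of 9 cardiomyocyte markers 3 were called higher and 3 lower, with summed levels of 32201 to 37128 CPM in sham and 20509 to 46337 CPM in MI. In bulk tissue, fewer cells of a type and less RNA per cell cannot be told apart, and the part of these shifts in the results below was not tested.

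To show how the large subunits differ, the 27 coding bases around the catalytic cysteine position are given, in RNA sense and in GENCODE M21 models on GRCm38, with the aligned codon in capitals. Capn1 and Capn2 stand for the classical enzymes, and Capn15 and Capn6 for the genes whose levels differed most among the large subunits.
Capn1: gcactgggggacTGTtggctcctggct
Capn2: gccctgggggacTGCtggctgctggct
Capn15: ctgctggggaacTGCtggttcctgagt
Capn6: agattggggaacAAGgcaatgatctct
The codon is number 115 in Capn1 (chr19:6013688-6014002, minus strand), 105 in Capn2 (chr1:182492851-182512213, minus strand), 628 in Capn15 (chr17:25963136-25963263, minus strand) and 81 in Capn6 (chrX:143810887-143810913, minus strand). The first 3 windows cross an intron, and the Capn6 window lies in 1 exon. Cysteine codons also stood at the aligned position in Capn3, Capn5, Capn7 and Capn10. Capn6 alone among the 8 large subunits had a lysine codon there, so it lacks the cysteine on which catalysis rests. Against calpain-1, identity over the aligned residues was 61.6% for Capn2, 55.2% for Capn3, 36.7% for Capn15 and 27.6% for Capn7.

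On a per-length scale (FPKM summed over each gene's transcripts), the small subunit was the most abundant member and calpain-2 the main large subunit. Capns1 averaged 97.8 FPKM in fl/fl-Sham and 102 FPKM in CKO-Sham, followed by Capn2 at 33.8 and 30.0 FPKM, Cast at 17.9 and 16.3 FPKM, Capn7 at 9.35 and 8.82 FPKM and Capn1 at 6.17 and 5.56 FPKM. Capn15, Capn10, Capn5, Capn3 and Capn6 came next in that order in both sham groups. The 2 libraries of neighbouring members did not overlap anywhere in the sham order. This order counts all annotated transcripts, those with retained introns among them. By transcripts annotated as protein coding, Capns1 averaged 35.2 FPKM over the sham libraries and Capn2 30.8 FPKM. In fl/fl-Sham 1 Capns1 was then below Capn2 (30.2 against 31.2 FPKM). Coding Capn7 averaged 4.46 FPKM in sham, below Capn1 at 5.86 FPKM, whose transcripts are all annotated as coding. In MI, Cast moved above Capn2 by mean level, at 49.6 against 44.2 FPKM in fl/fl-MI and 51.1 against 45.6 FPKM in CKO-MI, although the libraries of that pair overlapped within each group (35.5 to 53.0 FPKM for Capn2 in fl/fl-MI). Capn15, Capn10 and Capn5 overlapped their neighbours in fl/fl-MI, whereas in CKO-MI the overlapping pairs below Capn2 were Capn10 with Capn5 and Capn6 with Capn3.

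**Figure D1:**
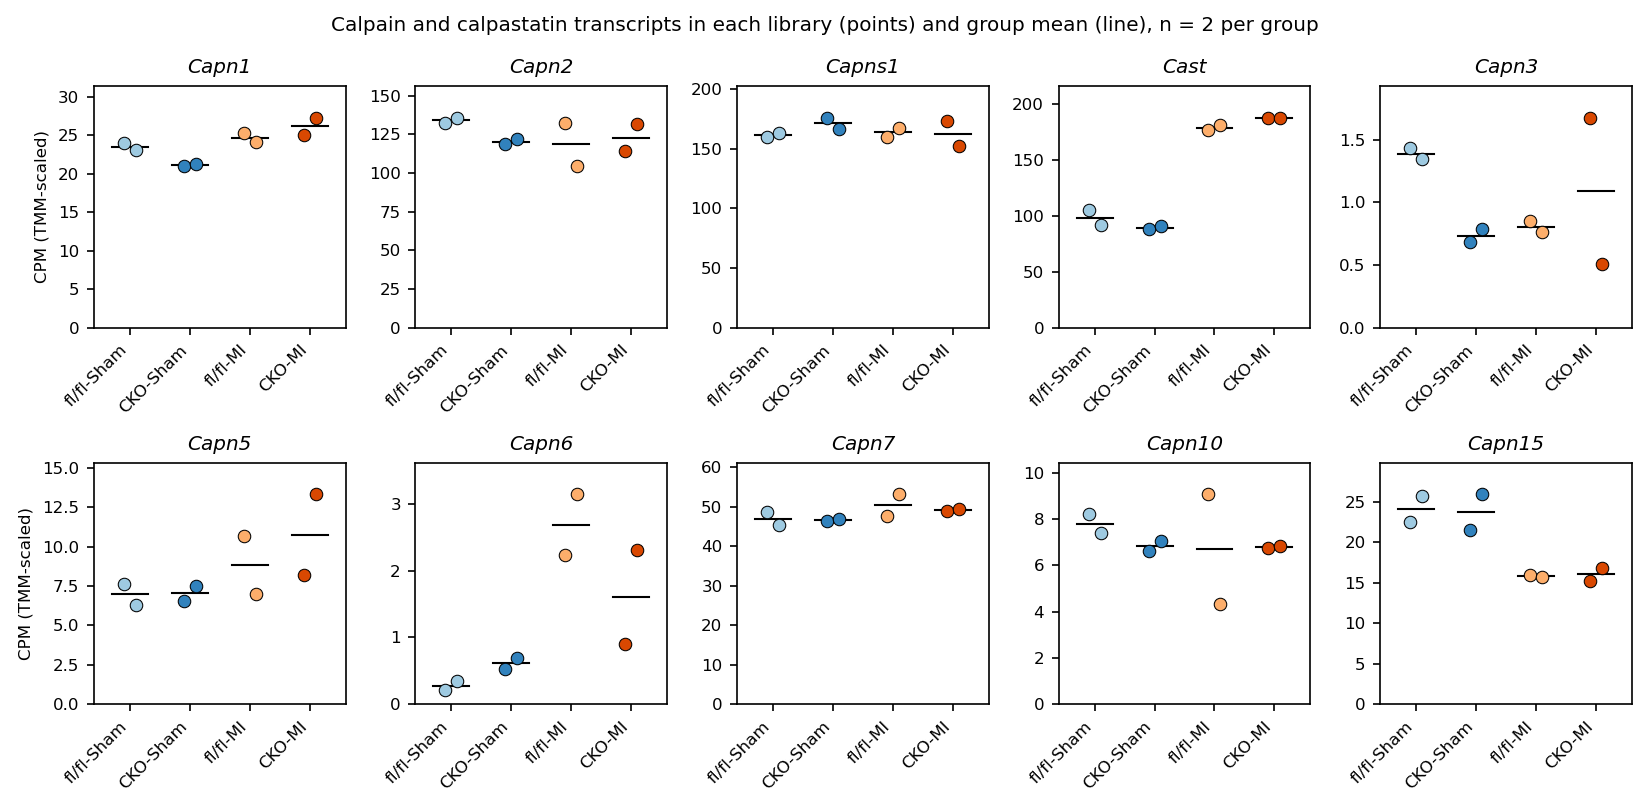
Level of each member in TMM-scaled CPM (linear axis from 0, a separate scale in each panel) in the 8 libraries, with a point for each library and a line for the mean of the 2 libraries of a group. Cast lies at 87.8 to 105 CPM in sham and 176 to 188 CPM in MI, Capn15 falls to 15.2 to 16.8 CPM, and Capn2 and Capns1 overlap between sham and MI.

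Infarction was compared with sham over both genotypes (edgeR quasi-likelihood test, adjusted p over all genes tested). Esr1 stood at 5.52 to 8.36 CPM in every sham library and 7.75 CPM in fl/fl-MI 1, against 331 to 707 CPM in the other MI libraries. Infarction and this signal thus largely ran together, fully so within CKO, and the part of the signal was not tested. Calpastatin rose after MI and Capn15 fell, while the classical subunits Capn1, Capn2 and Capns1 did not pass the test. Of the 10 members, 8 passed the filter on low values (mean FPKM of at least 0.5), and 1 of these was called higher and 1 lower, where 40.4% of all 14028 genes tested were called (22.0% higher and 18.3% lower). On log2(FPKM + 1) 6 members were called higher and 0 lower, where 50.1% of all genes were called higher and 5.97% lower. On log2(TPM + 1) 8 were called higher and 0 lower, against 76.7% and 1.98% of all genes. These are scales on which the median of all genes tested was itself 0.41 and 0.92. The median log2 fold change was 0.03 over the 8 members and 0.03 over all genes tested. Without regard to a test, sham and MI libraries did not overlap in CPM for 4 of the 10 members (Cast, Capn1 and Capn6 higher, Capn15 lower). Of the genes that passed the filter, 40.4% did not overlap either (20.9% with MI higher, 19.5% with MI lower). Capn6, and Capn3 which overlapped, were under the filter, so that share does not cover them. Within fl/fl, and again within CKO, 1 of the 8 members was called higher and 1 lower, where 18.5% (10.1% higher, 8.45% lower) and 24.7% (12.8% higher, 11.9% lower) of all genes were called. A rule of at least 2-fold at an unadjusted p under 0.05 left 0 members over both genotypes, 0 within fl/fl and 1 (Cast) within CKO, against 16.0%, 15.4% and 17.0% of all genes.

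Cast (ENSMUSG00000021585, chr13:74692368-74808810, minus strand) encodes calpastatin. It stood at 105, 91.9, 87.8 and 90.7 CPM in fl/fl-Sham 1, fl/fl-Sham 2, CKO-Sham 1 and CKO-Sham 2, and at 176, 181, 188 and 187 CPM in fl/fl-MI 1, fl/fl-MI 2, CKO-MI 1 and CKO-MI 2. All 4 MI libraries lay above all 4 sham libraries, and the spread inside each condition was small. The log2 fold change was 0.97 (SE 0.09), a 1.95-fold rise, with an adjusted p of 0.00085 by the edgeR test. It was 0.86 (SE 0.13, adjusted p = 0.0094) within fl/fl and 1.07 (SE 0.13, adjusted p = 0.0050) within CKO. Without fl/fl-MI 2, the value over both genotypes was 0.96 and that within fl/fl, with 1 MI library left, was 0.84. The call within fl/fl was lost without fl/fl-Sham 1 or 2 (adjusted p = 0.075 and 0.11), and that within CKO without CKO-Sham 1 (adjusted p = 0.067). Cast lay at percentile 90.7 of the log2 fold changes of all genes tested, so a larger rise was not rare in these hearts.

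Capn15 (ENSMUSG00000037326, chr17:25958364-25985796, minus strand) encodes a large atypical calpain with zinc-finger repeats, related to the fly protein small optic lobes. Its levels were 22.5, 25.7, 21.5 and 26.0 CPM in the sham libraries in the same order, and 16.0, 15.7, 15.2 and 16.8 CPM in the MI libraries. Every MI library lay below every sham library in either genotype. The log2 fold change was -0.59 (SE 0.11), with an adjusted p of 0.0069 by the edgeR test, and -0.58 without fl/fl-MI 2. By genotype it was -0.61 (adjusted p = 0.041) for fl/fl and -0.57 (adjusted p = 0.040) for CKO, and these calls held in 6 and 8 of 18 alternative settings. Without fl/fl-MI 2 the value for fl/fl, with 1 MI library left, was -0.59. This direction was not kept by every scaling. On log2(FPKM + 1) the difference was -0.01, and on log2(TPM + 1) it was 0.47 and called higher (adjusted p = 0.027 by limma). Both were below the median of all genes. Relative to that median, Capn15 was lower by -0.42 and -0.44, and Cast higher by 0.99 and 1.07.

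The classical catalytic subunits moved little. Capn1 (ENSMUSG00000024942, chr19:5988545-6015825, minus strand), the large subunit of calpain-1, stood at 24.0, 23.1, 21.0 and 21.3 CPM in sham and 25.2, 24.1, 25.0 and 27.3 CPM in MI. The lowest MI library was just above the highest sham library, and the log2 difference was 0.19 (SE 0.09, adjusted p = 0.12 by edgeR). Capn2 (ENSMUSG00000026509, chr1:182467260-182517524, minus strand), the large subunit of calpain-2, stood at 132, 136, 119 and 122 CPM in sham and 133, 104, 114 and 131 CPM in MI. The groups overlapped, fl/fl-MI 2 was the lowest library, and the log2 difference was -0.07 (SE 0.11, adjusted p = 0.63), or 0.01 without that library. Capns1 (ENSMUSG00000001794, chr7:30186936-30198811, minus strand), the small regulatory subunit, stood at 160.0, 164, 176 and 166 CPM in sham and 160.2, 168, 173 and 152 CPM in MI. Its log2 difference was -0.03 (SE 0.10, adjusted p = 0.84), with overlapping groups. The direction of Capn2 and Capns1 followed the scaling, since they were called higher on the FPKM and TPM scales (0.46 and 0.53 on log2(FPKM + 1), 1.02 and 1.10 on log2(TPM + 1)). Relative to the median of all genes, those values were 0.05 and 0.12 on the FPKM scale and 0.11 and 0.18 on the TPM scale, and Capn1 stood 0.25 and 0.30 above it.

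**Figure D2:**
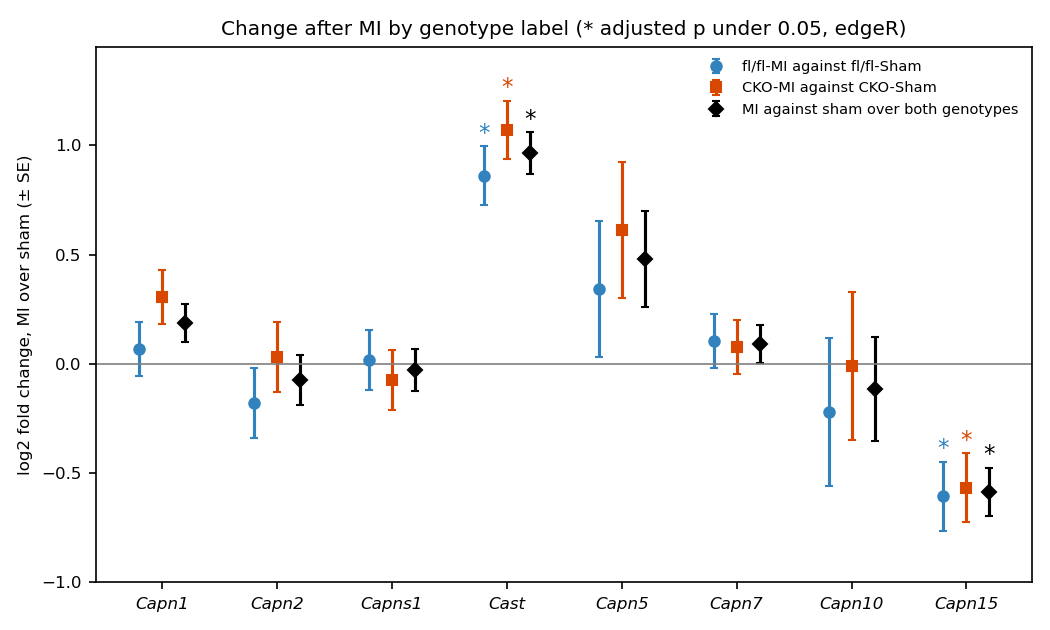
Log2 fold change of MI over sham (vertical axis, bars ± SE from edgeR) for the 8 members tested, for fl/fl (circles), CKO (squares) and both genotypes (diamonds), with stars at adjusted p under 0.05. Cast is starred above 0 and Capn15 below 0 in all 3 comparisons, and no other member carries a star.

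The mRNA of each classical subunit was also set against that of calpastatin within a library, a ratio that does not depend on library scaling. The ratio of Capn2 to Cast (summed transcript FPKM) was 1.81, 1.97, 1.95 and 1.74 in the sham libraries and 1.07, 0.717, 0.769 and 1.01 in the MI libraries. The ratio of Capn1 to Cast was 0.320 to 0.363 in sham and 0.174 to 0.220 in MI. The ratio of Capns1 to Cast was 5.88 ± 0.70 (SD, n = 4) in sham and 2.77 ± 0.18 (SD, n = 4) in MI. Summed over all annotated transcripts, all 3 ratios were lower in every MI library than in every sham library. For Capns1, retained-intron transcripts took 53.9% to 67.8% of FPKM in sham and 24.5% to 37.4% in MI. Coding Capns1 averaged 35.2 FPKM in sham and 91.6 FPKM in MI, against 17.1 and 50.3 FPKM for Cast. Both were higher in MI, so a lower ratio is not shown for coding Capns1 alone. The 3 ratios are descriptions built from genes already shown and were given no test, and they compare RNA, not subunit or inhibitor protein.

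**Figure D3:**
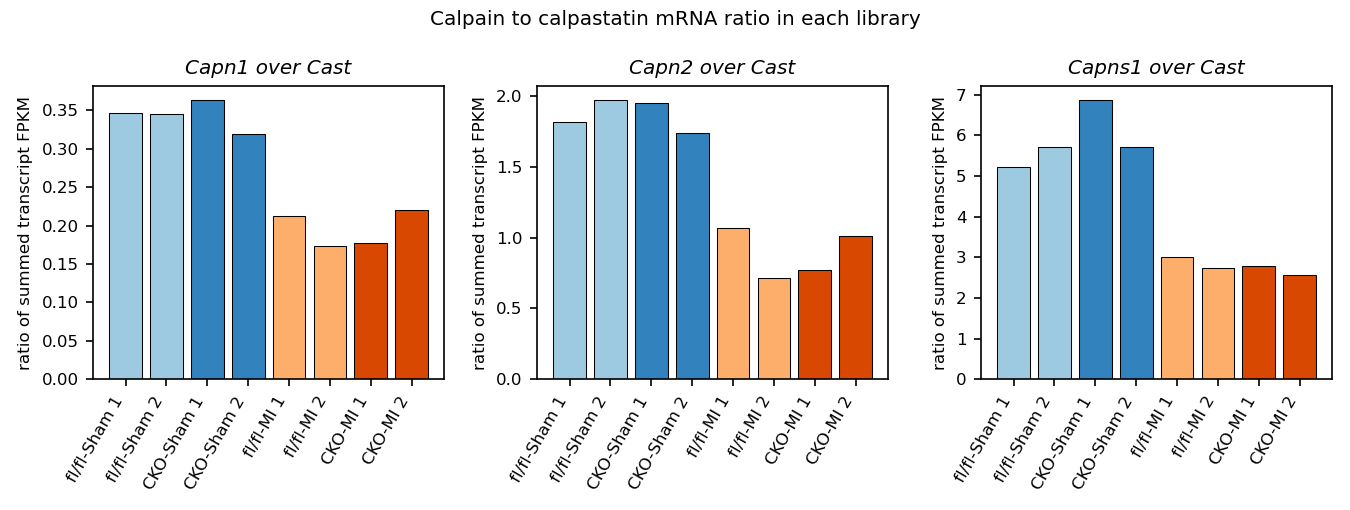
Ratio of summed transcript FPKM of Capn1, Capn2 and Capns1 to that of Cast, with a bar for each of the 8 libraries. Axes are linear from 0, with a separate scale in each panel. The sums count all annotated transcripts, those with retained introns among them. All 4 MI bars are lower than all 4 sham bars in each panel, for Capn2 0.717 to 1.07 against 1.74 to 1.97.

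Among the atypical calpains other than Capn15, none that passed the filter was called. Capn5 (ENSMUSG00000035547, chr7:98121559-98178274, minus strand), which lacks the calmodulin-like domain of the classical enzymes, stood at 7.61, 6.33, 6.57 and 7.52 CPM in sham and 10.7, 7.00, 8.19 and 13.4 CPM in MI. The MI libraries lay above the sham range except for fl/fl-MI 2, which lay within it. The log2 difference was 0.48 (SE 0.22, adjusted p = 0.12), and it was 0.61 (adjusted p = 0.037) without fl/fl-MI 2. Capn7 (ENSMUSG00000021893, chr14:31336638-31371986, plus strand), which carries microtubule-interacting and transport domains, stood at 48.5, 45.3, 46.4 and 46.8 CPM in sham and 47.7, 53.2, 48.9 and 49.4 CPM in MI. The groups overlapped, and the log2 difference was 0.09 (SE 0.09, adjusted p = 0.44). Capn10 (ENSMUSG00000026270, chr1:92934376-92947941, plus strand), studied in glucose metabolism, stood at 8.22, 7.39, 6.61 and 7.04 CPM in sham and 9.09, 4.31, 6.73 and 6.83 CPM in MI. The highest and lowest of the 8 libraries were both fl/fl-MI, and the log2 difference of -0.11 (SE 0.24, adjusted p = 0.73) became 0.11 without fl/fl-MI 2 and -0.45 (adjusted p = 0.036) without fl/fl-MI 1.

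The 2 members under the filter were the muscle calpain and the one without the catalytic cysteine. Capn6 (ENSMUSG00000067276, chrX:143802231-143827414, minus strand), known as a microtubule-stabilising protein, had 12, 22, 39 and 42 counts in the sham libraries and 236, 261, 76 and 224 counts in the MI libraries. Every MI library lay above every sham library, at 0.898 to 3.15 CPM against 0.205 to 0.691 CPM, and CKO-MI 1 was the lowest of them. When no filter was applied, its log2 fold change was 2.39 (SE 0.40, adjusted p = 0.0011 by edgeR), where 17.1% of genes were called, and 2.27 (adjusted p = 0.0010) without fl/fl-MI 2. The level stayed low, at a mean of 0.877 FPKM in fl/fl-MI against 142 FPKM for Capns1. Capn3 (ENSMUSG00000079110, chr2:120463572-120504918, plus strand), the calpain of skeletal muscle, had 84, 85, 50 and 48 counts in sham and 90, 63, 142 and 49 counts in MI. Its groups overlapped, the 2 CKO-MI libraries were the highest and lowest in CPM (1.68 and 0.505), and the log2 difference without a filter was -0.04 (SE 0.41, adjusted p = 1.0). Summed skeletal muscle markers were 1427 to 2020 CPM in sham and 607 to 1540 CPM in MI, with 1 of the 4 tested called lower. Of the 7 listed, Ckm is also on the cardiomyocyte list, so this sum does not stand for skeletal muscle alone.

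The genotype comparisons called no member. For CKO-MI against fl/fl-MI, 0 of 8 members were called by edgeR, 0 had an unadjusted p under 0.05, and DESeq2 also called 0, where 0.0% of all genes were called by edgeR and 1166 genes had an unadjusted p under 0.05. By DESeq2 1.48% of all genes were called, and by edgeR 11.9% without fl/fl-MI 1 and 0.192% without fl/fl-MI 2, with 0 members in each. Log2 differences ran from -0.04 for Capn7 to 0.29 for Capn5, with SEs of 0.12 to 0.34 that were widest for Capn10 and Capn5. Without fl/fl-MI 2 they ran from -0.42 for Capn10 (SE 0.21, adjusted p = 0.49) to 0.09 for Cast, with Capn5 at 0.01, and without fl/fl-MI 1 Capn10 stood at 0.67 (adjusted p = 0.10) and Capn5 at 0.64 (adjusted p = 0.24). Cast differed by 0.07 (SE 0.13, adjusted p = 0.92), Capn2 by 0.05 (SE 0.16), Capn1 by 0.08 (SE 0.12) and Capns1 by -0.01 (SE 0.14). In sham hearts the 8 log2 differences lay between -0.19 and 0.08, none called, against 0.00713% of all genes. The test of whether the MI effect differed by genotype gave 0.21 (SE 0.19, adjusted p = 0.79) for Cast and 0.04 (SE 0.22, adjusted p = 0.98) for Capn15, and called no member and 0.0% of all genes. Without fl/fl-MI 2 it gave 0.23 (adjusted p = 0.63) for Cast and 0.03 (adjusted p = 0.97) for Capn15. No member was called in the interaction by DESeq2, or without fl/fl-MI 1 or 2, where 0.934%, 5.35% and 0.0356% of all genes were. All of these rest on genotype labels that Esr1 goes against in CKO-Sham 1, CKO-Sham 2 and fl/fl-MI 2.

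Transcript assignments were less stable than gene totals. Of the 61 member transcripts, 23 passed a mean FPKM of 0.5 and 3 were called after MI, where 16.9% of all 26966 transcripts tested were called. Of these 3, both from Cast passed that minimum only through MI, so the count is no support. In a test of each transcript's share within its gene, 1 of 20 was called, against 1.57% of 19011 transcripts. That transcript is also from Cast and passed the minimum only through MI, so this count is no support either. For Cast, 3 transcripts begin at an upstream start and 3 at a start 38.1 kb downstream, the latter coding for 674 to 704 residues against 520 to 788 for the former. The upstream group took 55.6%, 85.8%, 77.5% and 28.3% of Cast FPKM in the sham libraries and 75.3%, 42.6%, 57.3% and 80.6% in the MI libraries. These shares differed more within a group than between sham and MI, so no switch between starts could be resolved. Both groups of transcripts were higher on average in MI (32.3 against 10.5 FPKM upstream, 16.4 against 5.85 FPKM downstream). These are FPKM without TMM scaling, and on log2(FPKM + 1) the median of all genes tested was itself 0.41 higher in MI. The longest, ENSMUST00000223206, was the most abundant on average, at 1.10 to 10.5 FPKM in sham and 13.7 to 36.6 FPKM in MI, and it did not pass the test (log2 1.26, adjusted p = 0.26 by edgeR).

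Both called Cast transcripts begin at the downstream start. ENSMUST00000223033 stood at 0.487, 0.533, 0.370 and 0.553 FPKM in sham and 1.97, 5.74, 4.39 and 2.52 FPKM in MI. Its log2 fold change on TMM-scaled counts was 2.47 (adjusted p = 0.030 by edgeR). ENSMUST00000223126 was listed at 0, 0, 0.114 and 0.592 FPKM in sham and stood at 1.14, 4.91, 1.88 and 2.18 FPKM in MI (adjusted p = 0.024 for its level and 0.021 for its share within Cast). Both were highest in fl/fl-MI 2, and together they made a small part of Cast mRNA, with at most 11.6% and 9.93% in any library. With a minimum of 0.1 FPKM, which the sham means also pass, the adjusted p was 0.043 and 0.035 for their levels. Without fl/fl-MI 2 it was 0.037 and 0.036 for their levels, and the call on the share of ENSMUST00000223126 was lost (adjusted p = 0.098). The calls on their levels were lost in 7 of 12 and 6 of 11 alternative settings, the removal of each fl/fl-Sham or CKO-Sham library among them.

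The total of Capns1 did not pass the test, but 1 of its transcripts did. A spliced but intron-containing transcript annotated as retained intron, ENSMUST00000207082, was the most abundant on average and in every sham library, at 58.5, 53.2, 63.1 and 63.6 FPKM in sham and 34.0, 43.3, 50.4 and 39.6 FPKM in MI. All MI libraries lay below all sham libraries in FPKM, which is without TMM scaling and averaged 59.6 in sham and 41.8 in MI. The share of this transcript within the gene did not pass the test (adjusted p = 1). On TMM-scaled counts the log2 fold change of its level was -0.98 (adjusted p = 0.028 by edgeR), a larger fall than in FPKM. Without fl/fl-MI 2 the value was -1.14 (adjusted p = 0.027). In every MI library a coding transcript stood above it, ENSMUST00000126116 at 95.1, 83.7 and 82.2 FPKM in fl/fl-MI 1, fl/fl-MI 2 and CKO-MI 1, and ENSMUST00000001845 at 87.5 FPKM in CKO-MI 2. The call was lost in 7 of 12 alternative settings, with adjusted p up to 0.085 without fl/fl-Sham 1. Transcripts annotated as protein coding took 32.6%, 41.8%, 35.5% and 30.4% of Capns1 FPKM in sham and 72.5%, 63.3%, 60.4% and 66.4% in MI. This split by annotation was made after the values were seen and has no test. Within the coding class, ENSMUST00000001845 and ENSMUST00000126116, each with 268 coding codons and with different 5′ ends, swapped places between libraries of a group: the latter was listed at 0 FPKM in fl/fl-Sham 1 and at 38.7 FPKM in fl/fl-Sham 2, so their separate levels are uncertain.

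**Figure D4:**
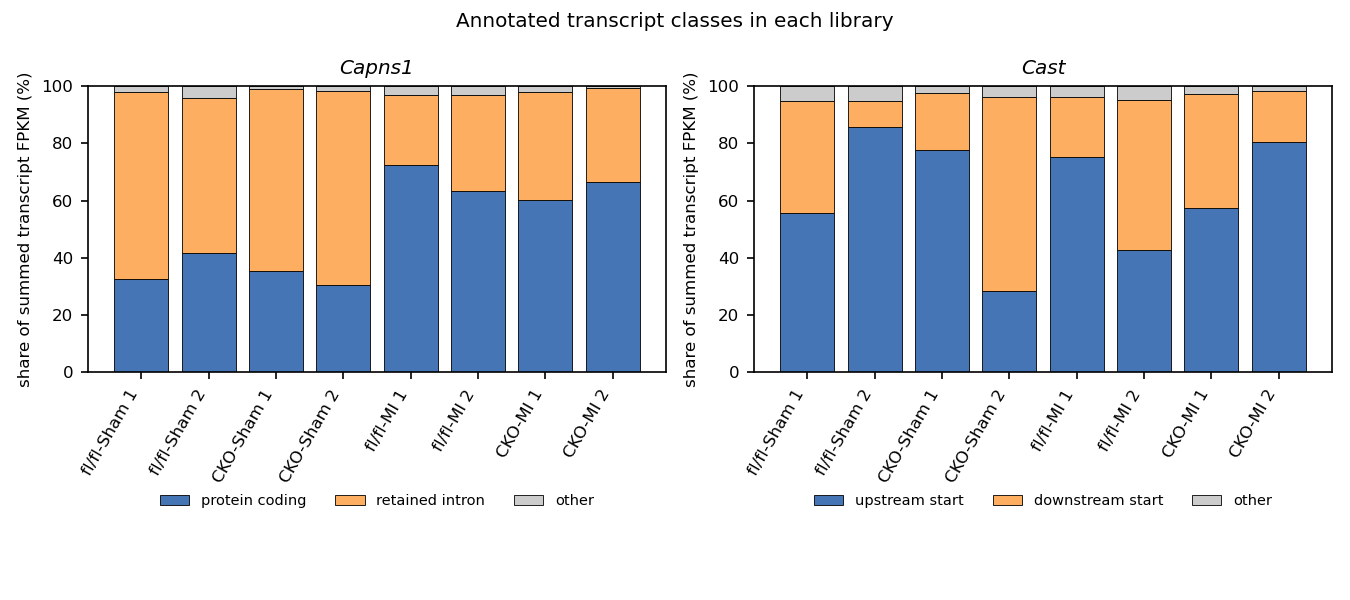
Share of each gene's summed transcript FPKM (0% to 100%) by annotated class in the 8 libraries, for Capns1 (protein coding, retained intron, other) and Cast (upstream start, downstream start, other). The coding share of Capns1 is 30.4% to 41.8% in sham and 60.4% to 72.5% in MI, whereas the upstream share of Cast spans 28.3% to 85.8% within sham alone.

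For the other members the transcript most abundant on average was not called. In Capn2, ENSMUST00000068505 held 95.4% to 97.5% of the gene's FPKM in every library. The most abundant transcripts of Capn1 (ENSMUST00000025891, adjusted p = 0.71), Capn5 (ENSMUST00000040971, 0.19), Capn7 (ENSMUST00000022451, 0.20), Capn10 (ENSMUST00000027488, 1.0) and Capn15 (ENSMUST00000212735, 0.23) did not pass either. Those of Capn3 (ENSMUST00000028749) and Capn6 (ENSMUST00000087316) were under the transcript filter. The leading Capn15 transcript is also annotated as retained intron, and it ranged from 0.865 to 2.57 FPKM in sham and 0.525 to 2.12 FPKM in MI.

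Calpain targets were taken as a list of 26 genes known as calpain substrates in muscle and other cells, of which 24 were tested. After MI, 12 were called higher, 2 lower and 10 not, against 22.0% and 18.3% of all genes, and the median log2 fold change was 0.57 against 0.03 over all genes tested. The largest rises were in Cdh2, the cadherin of the intercalated disc (log2 1.65, SE 0.11), Slc8a1, the Na+/Ca2+ exchanger (1.56, SE 0.13), and Vcl, vinculin of the costamere (1.49, SE 0.11), with adjusted p from 0.00044 to 0.00064 by edgeR. Vcl stood at 39.7 to 48.4 CPM in sham and 115 to 149 CPM in MI. The called falls were in Tnni3, cardiac troponin I (-1.19, SE 0.30, adjusted p = 0.020), and Dysf, the membrane-repair protein dysferlin (-0.71, SE 0.11, adjusted p = 0.0031). Tnni3 stood at 2274 to 2969 CPM in sham and 716 to 1724 CPM in MI. On the TPM scale 23 of the 24 were called higher and 0 lower, where 76.7% of all genes were called higher. These are mRNA levels and carry no reading of cleavage.

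The genes whose log2 CPM ran most like Cast over the 8 libraries were Alkbh5, an RNA demethylase (Pearson r = 0.998), Eif4a-ps4 (0.998), Etf1, a translation termination factor (0.997), Usp9x, a deubiquitinase (0.997), and Ptpn2, a tyrosine phosphatase (0.996). Eif4a-ps4 is named as a pseudogene, and its counts may be shared with its parent gene. Those most like Capn15 were Nmrk1, a nicotinamide riboside kinase (0.989), Dctn3, a dynactin subunit (0.986), Tut1, an RNA uridylyltransferase (0.983), Gtf3c2, an RNA polymerase III factor (0.981), and Zmynd8, a chromatin reader (0.980). The libraries fall into sham and MI, so 566 genes other than Cast had r above 0.95 with it and 134 had with Capn15, and these are descriptions only.

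**Figure D5:**
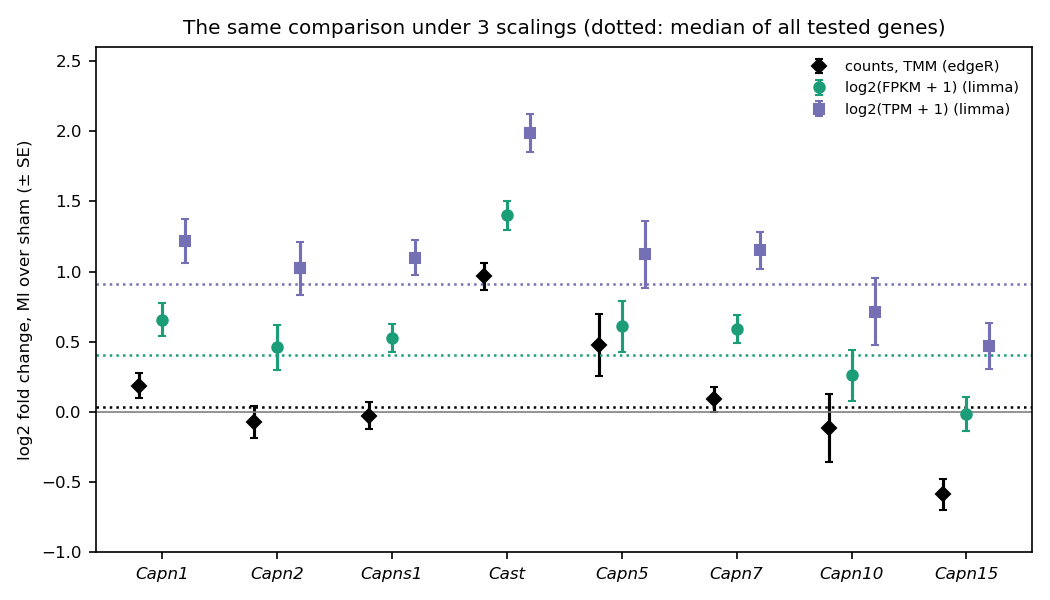
Log2 fold change of MI over sham (bars ± SE) for the 8 members tested under TMM-scaled counts (edgeR), log2(FPKM + 1) and log2(TPM + 1) (limma), with the median of all genes tested as a dotted line in the same colour at 0.03, 0.41 and 0.92. Cast lies above and Capn15 below the dotted line of each scaling, while the zero line is crossed by Capn2, Capn10, Capn15 and Capns1.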

How the data were processed

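Polyadenylated RNA was sequenced as paired reads from libraries made by second-strand dUTP digestion. The authors deposited read counts and FPKM values per gene and per transcript. Per the submitters' processing notes, reads were handled with cutadapt 1.9 and FastQC, and the aligner, counter, strand setting and genome build are not given in the sources used here. The deposited coordinates of the members, which are the loci printed above, were checked against GENCODE M21 on GRCm38. They were the same for Capn5, Capn6, Capn7, Capn10, Capn15, Capns1 and Cast, but differed for Capn1, Capn2 and Capn3. The members and lists were chosen with earlier results of these data known.

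Counts were tested in edgeR 4.0.16 (R 4.3.3) with TMM library sizes and the quasi-likelihood test, 1 mean per group over all 8 libraries, for genes whose FPKM averaged 0.5 or more, and p-values were adjusted by the Benjamini-Hochberg method over all genes tested, with 0.05 as threshold. Transcripts were tested likewise, and shares within a gene with diffSpliceDGE. The length behind the FPKM of a member appeared close to the union of its exons in GENCODE M21. For Cast it was 11739 to 11912 bases against 11470, whereas for Capn3 it was shorter, at 4422 to 4639 against 5023. Levels were therefore compared between genes by the sum of transcript FPKM. Alternatives used limma 3.58.1, DESeq2 1.42.0, other filters, scalings and pairings, and each library left out in turn. With a library left out, its group holds 1 library and the spread is taken from the other groups. The code was tested on simulated data. Nothing in the labels states that libraries of a group came from separate mice, so p-values measure the spread between these libraries only.

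Named genes were all 10 members, Piezo1 and Esr1 as label checks, up to 3 called substrates with the largest rise and fall, the 5 genes most correlated with the members of largest rise and fall, called member transcripts, and the leading transcript of each member. Marker lists were for cardiomyocytes, fibroblasts, endothelium, macrophages, lymphocytes, neutrophils, smooth muscle, atrium, skeletal muscle and erythroid cells. Correlations of same-numbered deviations ran from -0.199 to 0.054. No pairing by replicate number was thus seen, though such correlations cannot exclude one. Active-site codons were read from the reference coding sequences with Biopython 1.88.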

Additional observations from a re-analysis of the deposited data

How the results depend on the processing

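The rise of Cast was called under all 18 alternatives (log2 0.89 to 1.99), and the fall of Capn15 under TMM, RLE and DESeq2 and without any single library (-0.65 to -0.52) but not on the FPKM scales, and it turned to 0.47 on log2(TPM + 1). The count of called members over both genotypes moved from 2 to 1 with a mean FPKM of at least 5, to 6 on log2(FPKM + 1) and log2(FPKM + 0.1), all higher, to 8 on log2(TPM + 1), all higher, and to 0 with the 2-fold rule (unadjusted p under 0.05). Leaving out each library gave 2 to 3. For fl/fl the same settings gave 1, 4, 4, 6 and 0, only its 4 libraries gave 0, and leaving out each library gave 0 to 3 (0 without either fl/fl-Sham library). For CKO they gave 1, 4, 4, 6 and 1, no filter gave 1, and leaving out each library gave 0 to 2 (0 without CKO-Sham 1). The cause was not tested. Called substrates numbered 22 on log2(FPKM + 0.1), 23 on log2(TPM + 1), 7 with the 2-fold rule and 8 to 17 with libraries left out, the lowest without fl/fl-Sham 1, fl/fl-Sham 2 or CKO-Sham 1. Called member transcripts numbered 0 to 3 with libraries left out (0 without fl/fl-Sham 2, either CKO-Sham library or CKO-MI 2). The called share within Cast was lost at a mean FPKM of at least 2, to 0, and with libraries left out it gave 0 to 1. The genotype comparisons and the interaction called 0 members under every alternative run. Signs turned on log2(FPKM + 1), log2(FPKM + 0.1) and log2(TPM + 1) for Capn2 (0.46, 0.48 and 1.02), Capn10 (0.26, 0.38 and 0.72), Capns1 (0.53, 0.54 and 1.10) and Capn15 in CKO (0.0032, 0.0026 and 0.49), on log2(TPM + 1) for Capn15 in fl/fl (0.45), without a filter for Capns1 (0.038), and on log2(FPKM + 0.1) for Capn3 (0.22). Signs also turned with a library left out within -0.18 to 0.0067 for Capn2, -0.45 to 0.11 for Capn10, -0.10 to 0.0023 for Capns1, -0.64 to 0.27 for Capn3, and -0.072 to 0.64 for Capn5 between MI genotypes.

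With the replicate block, the members called were 2 over both genotypes, 1 in fl/fl (Capn15 at adjusted p = 0.052), 2 in CKO and 0 by genotype, the called member transcripts fell to 1, and the called substrates were 13. No pairing by replicate number was seen, though one is not excluded, and whether these counts mark a weaker effect was not tested. A crossed pairing of the MI libraries, chosen after seeing the data, called 0 genes, as did the pairing as numbered, with 551 and 294 genes at an unadjusted p under 0.05. The alternatives for Capn3, Capn6 and Capn12 without a filter were also chosen after seeing the data. With 2 libraries per group, changes in the low genes Capn3, Capn5 and Capn10 were limited by their spread.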

Other observations

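Of the 7 other calpain family genes, 6 were in the tables and Capn11 alone passed the filter. Capn11, a calpain known from testis, had 251, 314, 203 and 196 counts in the sham libraries and 18, 0, 16 and 0 counts in the MI libraries. It passed the filter only through sham, so these values are a description. Capn12, known from hair follicle, had 101 to 234 counts in sham and 23 to 73 in MI, and without a filter its log2 fold change was -2.38 (SE 0.40, adjusted p = 0.0011), with values of -2.83 to -2.05 when each library was left out. Capn8, Capn9, Capn13 and Capns2 had at most 33 counts in any library, and Capn14 was not analysed here. Capn11 and Capn12 were far below the classical subunits even in sham, at a summed transcript FPKM of 0.856 to 1.58 for Capn11 and 0.517 to 1.07 for Capn12.

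The remaining marker lists gave the following values in MI against sham. None of the 5 lymphocyte markers passed the filter (summed 3.13 to 6.70 against 3.50 to 7.17 CPM), and 0 of 4 neutrophil markers were called (5.12 to 11.4 against 7.40 to 11.8 CPM). Of 4 smooth muscle markers 1 was called lower (160.0 to 260 against 154 to 300.1 CPM). All 3 erythroid markers were called higher (200.2 to 547 against 57.7 to 416 CPM), and 1 of 5 atrial markers was (2547 to 19857 against 135 to 594 CPM, or at most 4450 in MI without fl/fl-MI 2).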
